A study of Mus musculus with 28 samples.

Results

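The 10 genes described here belong to the unfolded protein response and the integrated stress response, and were taken by symbol from a count table of 24391 genes of mouse motor cortex. They are the regulators Atf4, Ddit3 and Xbp1, the ATF4 and CHOP targets Trib3, Chac1 and Asns, and the genes of the endoplasmic reticulum (ER) Hspa5, Manf, Creld2 and Sdf2l1. All 10 were in the table and all 10 passed the filter on low counts in every comparison.

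The genotype of all 14 mice was Cx3CR1-Cre/TRAPfl, in which ribosomes carry a tag where the Cx3cr1 promoter drives Cre, in microglia and also in border-associated macrophages. TRAP (translating ribosome affinity purification) pulls down the tagged ribosomes with their mRNA. From every animal a TRAP library and a library of the total lysate were made, 28 in all. Home cage mice (n = 7) were the baseline, and run mice (n = 7) spent 1 h on the rotarod before collection. Each condition held 4 females and 3 males, with 4 mice in cohort 1 and 3 in cohort 2, which the labels call batches. The labels used here give no age, and no group without the transgenes was analysed.

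When unfolded proteins gather in the ER, the sensors IRE1, ATF6 and PERK become active. IRE1 splices Xbp1 mRNA, ATF6 is cut free to enter the nucleus, and PERK phosphorylates eIF2 alpha, which slows most translation and favours that of Atf4. Kinases that sense amino acid shortage, viral RNA or haem shortage reach eIF2 by the same route, which is why the branch through Atf4 is called the integrated stress response. Counts per gene do not separate spliced from unspliced Xbp1, and mRNA counts of Atf4 do not show how much of it is translated.

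The promoter stretches below are shown because they hold the binding elements by which these genes are known, the ER stress response element (ERSE) bound by NF-Y with ATF6 and the C/EBP-ATF response element (CARE) bound by ATF4 dimers. The sequences are RefSeq promoter windows on GRCm38.p6, with the element in capitals, and 9 of the 10 genes had a window (Manf had none). Hspa5 at chr2:34772020-34772049 on the plus strand and Creld2 at chr15:88819515-88819544 on the plus strand carry an ERSE, and Chac1 at chr2:119351038-119351067 on the plus strand carries a CARE.
Hspa5: cttcaCCAATcggaggcctCCACGacgggg
Creld2: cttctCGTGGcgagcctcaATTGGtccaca
Chac1: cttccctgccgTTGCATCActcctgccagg
The elements of Creld2 and Chac1 read on the minus strand. Both strands of the 250 bases before each start were searched for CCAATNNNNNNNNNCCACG (ERSE), found in 0.114% of 32536 windows, for ATTGGNCCACG (ERSE-II, 0.0307%), for TGATGCAA (CARE, 0.762%) and for TGACGTGG (an XBP1 and ATF6 element, 0.569%). No other match was found in these 9 windows. Only these letters were searched, with N as any base, so elements that differ from them would be missed.

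Total counts per library ran from 70090518 to 241381845, and microglial material was strongly enriched in TRAP. Of 12 microglia markers 12 were called higher in TRAP than in lysate (median log2 fold 6.56), and 10 of 10 pan-neuronal markers were called lower (median -1.39), with none at 0 in either fraction. Endothelial markers were also called higher, 8 of 8 with a median of 2.38, as were 7 of 7 markers of border-associated macrophages (median 5.99). The label "Microglia" also stands on the lysate libraries, where Cx3cr1 was at 13.6 ± 1.98 CPM (counts scaled as described below) against 1665 ± 430 in TRAP (SD, n = 14). Summed markers of several cell types stood apart by cohort. In TRAP, microglia markers ran from 22360 to 39170 CPM in cohort 1 and from 51550 to 69080 in cohort 2, and endothelial (154.7 to 320.2 and 499.3 to 706.4) and mural markers (49.3 to 107.5 and 114.7 to 232.2) were also higher in cohort 2. Pan-neuronal markers (4773 to 8521 and 1795 to 2525) and astrocyte markers (2393 to 3190 and 1624 to 2113) were lower there, while excitatory neuron markers overlapped (389.2 to 667.8 and 566.3 to 699.6). In lysate, pan-neuronal markers were again lower in cohort 2 (13900 to 17280 and 7620 to 11740), but excitatory neuron markers were higher (708.5 to 969.1 and 1987 to 2351), as were endothelial markers (34.37 to 69.99 and 84.0 to 102.0). In the run mice Male1 and Female2 of cohort 2, the level of 4 Y-linked genes went against the sex in the label in both libraries, and the cohort differences and the run effects below are given with and without them where they change.

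The values below are CPM, read counts scaled to library size, with TMM scaling over all 28 libraries, where TMM is edgeR's correction for library composition. A gene was called at an adjusted p under 0.05 in edgeR's quasi-likelihood test, adjusted by Benjamini-Hochberg over all genes tested. Log2 folds are given with their SE. Within bulk fractions, fewer cells of a type and less RNA per cell cannot be told apart.

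The stress response genes split between the fractions. The ER genes Hspa5, Manf, Creld2 and Sdf2l1 were higher in TRAP. The regulators and targets went both ways, with Atf4, Xbp1 and Trib3 higher and Ddit3, Chac1 and Asns lower. All 10 were called, 7 higher and 3 lower, where 73.9% of 16880 genes tested were called, 33.8% higher and 40.1% lower. The median log2 fold of the 10 genes was 0.49 and that of all genes -0.21. No gene of the 10 came near the microglia markers, whose lowest log2 fold was 5.45. The endothelial markers ran from 1.16 to 3.02, a range that held Sdf2l1, Creld2, Trib3 and Manf. The part of endothelial RNA in these values was not tested.

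Sdf2l1, a luminal ER protein that works with Hspa5 in a chaperone complex, had the highest ratio. Its level ran from 25.0 to 34.6 CPM in home cage lysate (median 30.7), from 32.5 to 42.5 in run lysate (median 36.0), from 161.4 to 397.4 in home cage TRAP (median 221.7) and from 123.4 to 507.3 in run TRAP (median 191.7). Every TRAP library lay above every lysate library. The log2 fold was 2.87 ± 0.135 (edgeR adjusted p = 4.03e-18), and within mice the ratio ran from 1.61 to 3.80.

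Creld2, an ER protein thought to help fold disulphide-rich proteins, ran from 16.3 to 35.0 CPM in home cage lysate (median 20.9) and 19.2 to 36.6 in run lysate (median 23.0), against 61.4 to 129.1 in home cage TRAP (median 69.6) and 53.3 to 207.0 in run TRAP (median 67.1). The fractions did not overlap, and the log2 fold was 1.84 ± 0.10 (adjusted p = 8.63e-17). Manf, a secreted ER stress protein with neurotrophic activity, stood at 34.4 to 55.5 CPM in home cage lysate (median 47.9) and 40.4 to 75.6 in run lysate (median 55.0). In TRAP its range was 106.5 to 140.0 for home cage (median 120.3) and 93.1 to 165.9 for run (median 117.4). Again no TRAP library fell into the lysate range, with a log2 fold of 1.30 ± 0.10 (adjusted p = 2e-13).

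Hspa5, the ER chaperone BiP that holds the sensors inactive, was at 228.8 to 539.0 CPM in home cage lysate (median 438.9), 258.9 to 575.9 in run lysate (median 481.3), 398.7 to 885.5 in home cage TRAP (median 659.4) and 392.8 to 750.8 in run TRAP (median 579.5). Its fractions overlapped across mice, yet TRAP was above lysate within each of 14 mice (log2 fold 0.64 ± 0.08, adjusted p = 1.71e-08). Xbp1, the transcription factor of the IRE1 branch, was at 103.5 to 168.5 CPM in home cage lysate (median 138.6), 121.8 to 166.9 in run lysate (median 136.0), 156.7 to 188.7 in home cage TRAP (median 174.4) and 131.8 to 211.2 in run TRAP (median 166.0). Its difference was smaller, 0.34 ± 0.06 (adjusted p = 7.13e-06), and again above 0 in 14 of 14 mice.

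Trib3, a pseudokinase induced by ATF4 and CHOP that feeds back on ATF4, had the lowest counts of the 10, with 24 to 691 reads per library. It ran from 0.227 to 1.20 CPM in home cage lysate (median 0.684) and 0.236 to 1.03 in run lysate (median 0.807), against 0.255 to 4.98 in home cage TRAP (median 1.66) and 0.816 to 4.33 in run TRAP (median 2.80). The log2 fold was 1.62 ± 0.33 (adjusted p = 5.53e-05). The ratio was above 0 in 14 of 14 mice but spread from 0.17 to 3.75, the widest spread of the 10 genes.

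Atf4, the transcription factor at the centre of the integrated stress response, was the least separated of the called genes. Home cage lysate ran from 74.8 to 87.5 CPM (median 76.0), run lysate from 78.7 to 119.5 (median 85.4), home cage TRAP from 61.0 to 129.4 (median 92.9) and run TRAP from 93.0 to 138.8 (median 103.8). The log2 fold was 0.26 ± 0.09 (adjusted p = 0.0123), with the ratio above 0 in 11 of 14 mice. The call was lost without the home cage mouse Female2 of cohort 1 (0.16, adjusted p = 0.127), without the 2 run mice whose sex markers went against their labels (0.20, adjusted p = 0.0645) and in home cage mice alone (0.26, adjusted p = 0.0859).

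Asns, which makes asparagine and is a target of ATF4, was lower in TRAP in 14 of 14 mice. It ran from 112.4 to 175.9 CPM in home cage lysate (median 136.8) and 111.6 to 181.1 in run lysate (median 147.4), against 28.5 to 80.1 in home cage TRAP (median 56.5) and 35.0 to 70.7 in run TRAP (median 45.2), with no overlap. Its log2 fold of -1.47 ± 0.08 (adjusted p = 4.11e-16) lay within the range of the pan-neuronal markers, -2.09 to -0.41. It also lay within those of oligodendrocyte (-2.09 to -0.34) and astrocyte markers (-1.49 to -0.235). The folds of Chac1 and Ddit3, given next, lay within each of these ranges too. The part of RNA from other cells in these values was not tested.

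Chac1, which degrades glutathione and is induced through ATF4, was at 7.93 to 19.2 CPM in home cage lysate (median 13.8), 8.67 to 19.9 in run lysate (median 14.9), 3.46 to 10.4 in home cage TRAP (median 6.89) and 5.54 to 12.3 in run TRAP (median 8.83). TRAP was the lower in 13 of 14 mice, with a log2 fold of -0.81 ± 0.16 (adjusted p = 4.2e-05). Ddit3, which encodes CHOP, ran from 19.9 to 45.3 CPM in home cage lysate (median 30.5), 23.5 to 53.1 in run lysate (median 34.3), 16.6 to 31.5 in home cage TRAP (median 20.0) and 16.9 to 61.1 in run TRAP (median 18.0). It too was lower in TRAP in 13 of 14 mice (-0.49 ± 0.11, adjusted p = 0.000179), the exception being the run mouse Female2 of cohort 2.

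**Figure D1:**
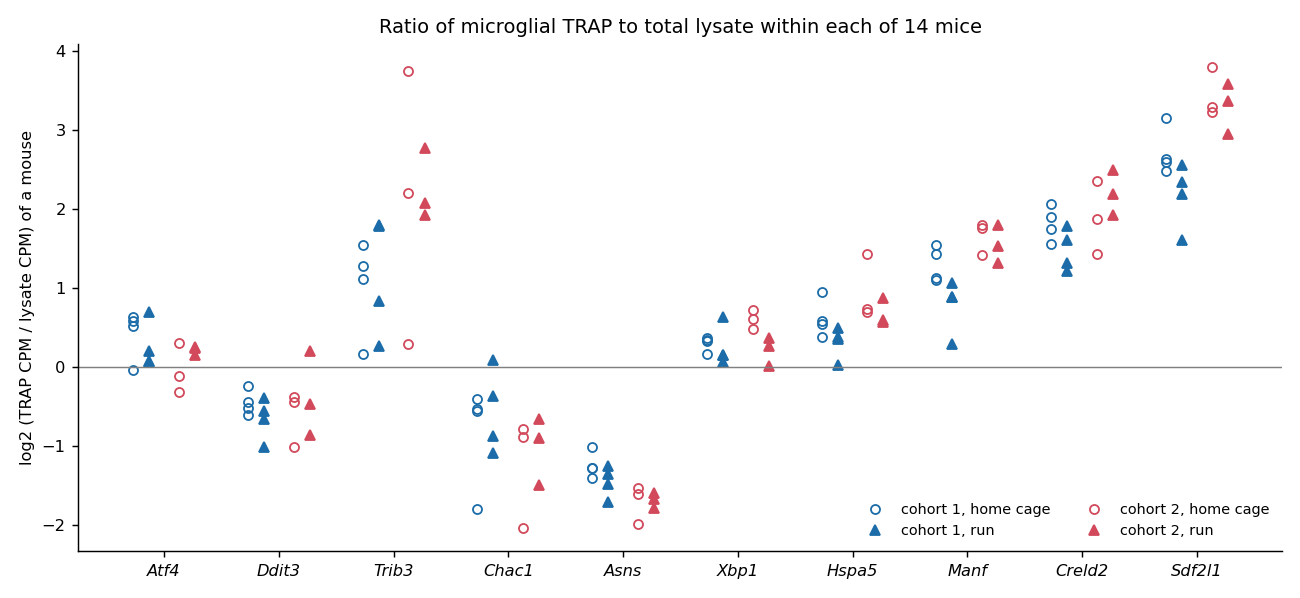
Log2 ratio of TRAP CPM to lysate CPM (vertical axis) within each of 14 mice for the 10 genes, with cohort by colour and condition by symbol. Sdf2l1, Creld2, Manf, Hspa5, Xbp1 and Trib3 lie above 0 in every mouse, Asns below 0 in every mouse, and the cohort 2 points of Sdf2l1 and Manf sit higher than most of those of cohort 1.

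**Figure D2:**
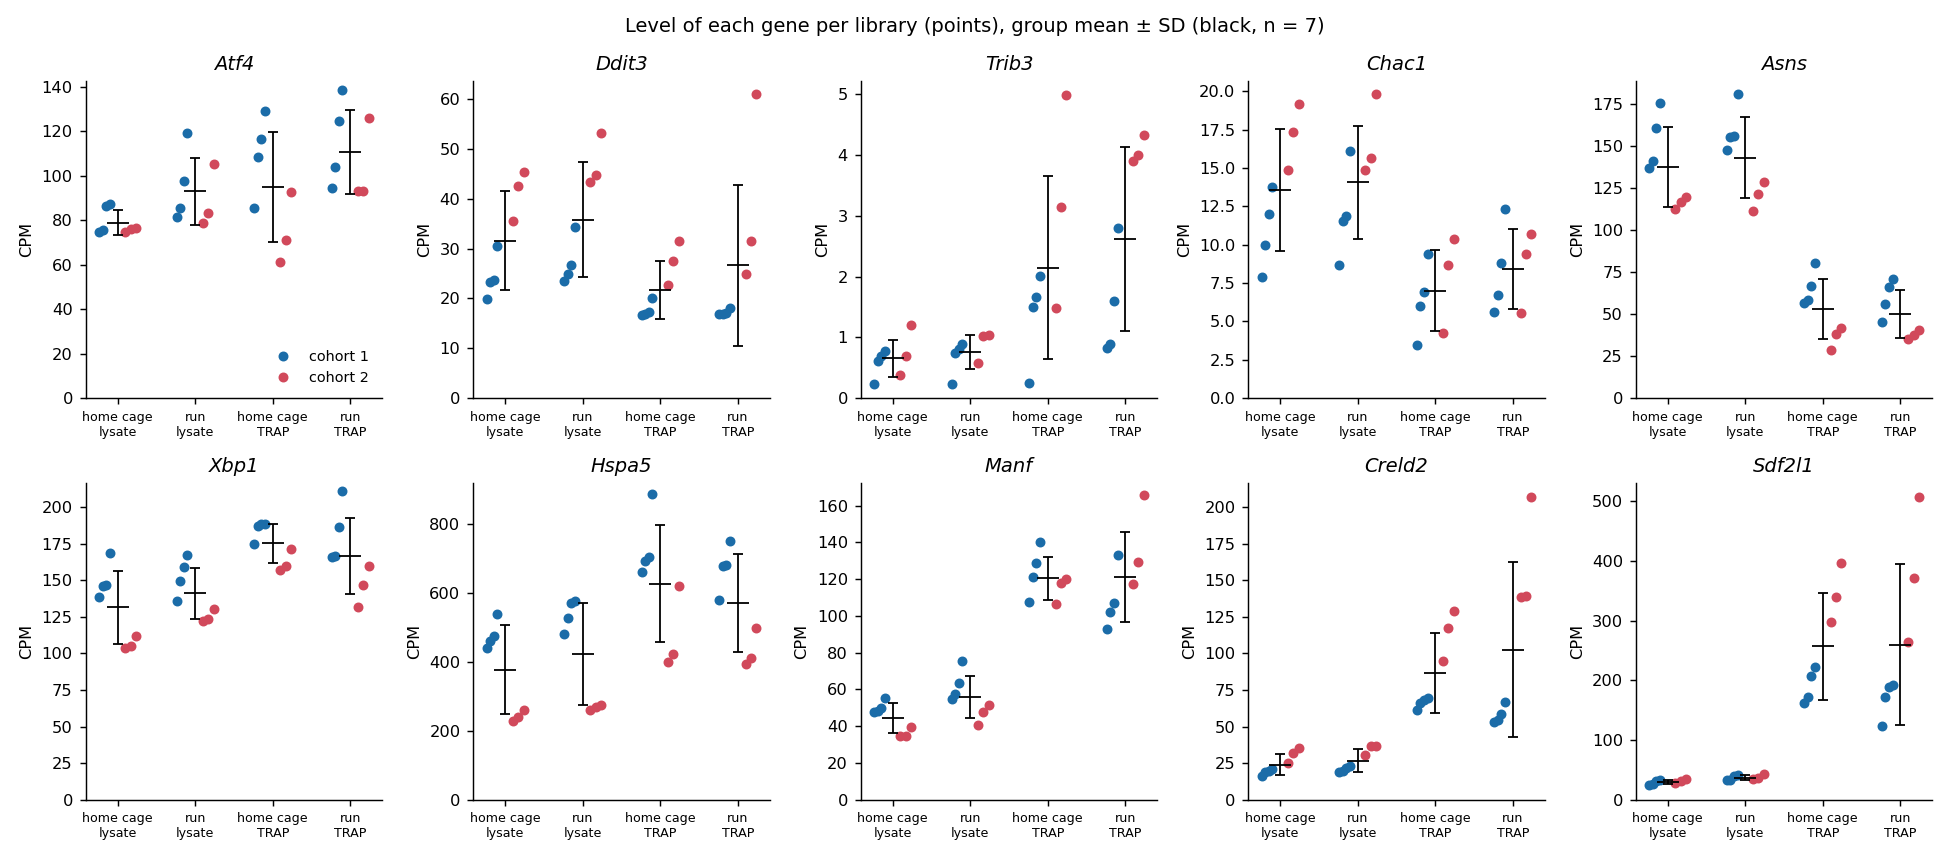
CPM of each gene in each of 28 libraries (points, coloured by cohort) by group, with group mean and SD in black (n = 7). Creld2, Ddit3, Hspa5, Asns and Xbp1 separate by cohort in all 4 groups, and the highest Ddit3, Creld2 and Sdf2l1 points in run TRAP are those of 1 mouse of cohort 2.

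Ddit3 and Manf share exon bases with other gene models on GRCm38, and no strand setting is given in the sources used here, so their counts are less certain. Ddit3 (chromosome 10, 127290774 to 127296288, plus strand) shares 68 exon bases with Mars and 13 with Gm4189 on the opposite strand, and 105 with a second model of the same name. Manf (chromosome 9, 106838312 to 106891979, minus strand) shares 146 with Dcaf1 and 166 with 4930524O07Rik on the opposite strand and 14 with Rbm15b on its own. The other 8 genes share no exon bases with another model. Among them Sdf2l1 lies on chromosome 16 (17130138 to 17132383, minus strand), Atf4 on chromosome 15 (80255184 to 80257541, plus strand) and Asns on chromosome 6 (7675169 to 7693254, minus strand).

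Per kilobase of exon, the order of the genes differed between the fractions. The length was that of all exon bases of a gene model, not of the transcripts expressed, so levels compare only roughly between genes. For Manf it was 3.52 kb, in a model that shares exon bases with other genes, and its level per kb may be too low. In lysate the mean level (n = 14) fell from Hspa5 at 94.5 ± 32.1 CPM per kb (SD) through Asns at 51.4 ± 8.47, Xbp1 at 41.9 ± 6.57, Atf4 at 36.4 ± 5.60, Sdf2l1 at 30.3 ± 4.68, Ddit3 at 19.7 ± 6.18, Creld2 at 18.5 ± 5.31, Manf at 14.3 ± 3.19 and Chac1 at 8.44 ± 2.25 to Trib3 at 0.333 ± 0.136. In TRAP it fell from Sdf2l1 at 232.8 ± 99.4 through Hspa5 at 141.3 ± 36.0, Creld2 at 69.0 ± 33.2, Xbp1 at 52.6 ± 6.25, Atf4 at 43.6 ± 9.59, Manf at 34.3 ± 5.22, Asns at 18.9 ± 5.70, Ddit3 at 14.1 ± 6.99 and Chac1 at 4.71 ± 1.59 to Trib3 at 1.12 ± 0.696. Ranges of neighbours in these orders overlapped except Chac1 over Trib3 in lysate and Ddit3 over Chac1 in TRAP. Sdf2l1 was above Hspa5 in 10 of 14 TRAP libraries, and Asns above Xbp1 in 14 of 14 lysate libraries.

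Among other genes of the pathways, most of those of the ER were higher in TRAP, where 33.8% of all genes were called higher and 40.1% lower. Of 37 other ER chaperones, folding and ER-associated degradation genes tested, 29 were called higher and 3 lower (median log2 fold 1.00). Edem1 (5.17 ± 0.10) and Edem2 (3.60 ± 0.10), which mark misfolded glycoproteins for degradation, and Derl1 (1.93 ± 0.07), part of the channel that exports them, had the smallest p-values. A list of 8 genes held those of IRE1 (Ern1) and ATF6, relatives of ATF6 and their proteases. PERK (Eif2ak3) was counted with the eIF2 kinases instead. Of these 8 genes 6 were higher and 0 lower (median 0.63). The list was led by the protease Mbtps1 (0.80 ± 0.08) that cuts ATF6, and by Creb3l1 (2.15 ± 0.21) and Creb3l2 (1.59 ± 0.21), ER-bound relatives of ATF6.

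Of 37 other targets and partners of ATF4 and CHOP, 17 were higher and 14 lower (median 0.08), the latter near the 40.1% of all genes. The C/EBP factors Cebpb (3.63 ± 0.14) and Cebpg (2.25 ± 0.10), which pair with ATF4, and the amino acid transporter subunit Slc3a2 (1.61 ± 0.08) led it. Of 16 eIF2 kinases, eIF2 subunits and regulators, 6 were higher and 7 lower (median -0.03), both near the shares of all genes (33.8% and 40.1%). It held the RNA-sensing kinase Eif2ak2 at 2.53 ± 0.15, the GCN2 inhibitor Impact at -1.17 ± 0.12 and the eIF2B subunit Eif2b4 at 0.60 ± 0.085. Of 6 paralogs of the 10 genes, 1 was higher (Trib1, 1.37 ± 0.10) and 3 lower, among them Chac2 at -1.62 ± 0.15 and Creld1 at -0.43 ± 0.08. Creld1 and Chac2 are close relatives of Creld2 and Chac1.

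**Figure D3:**
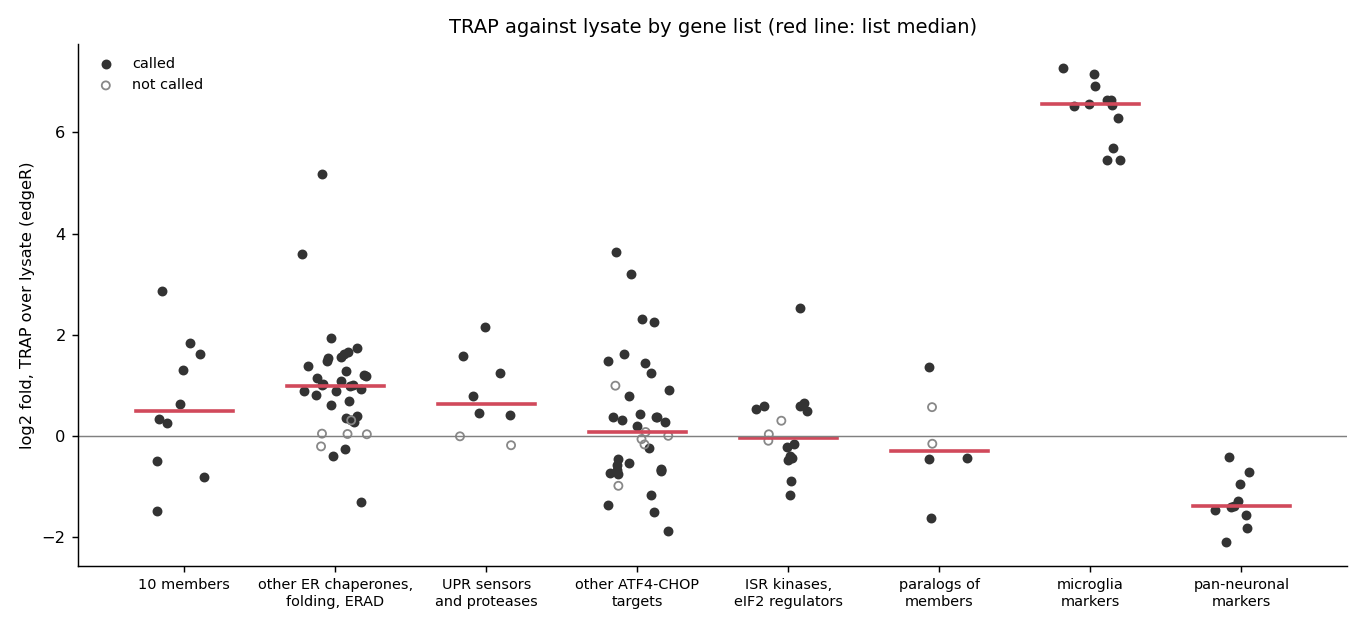
Log2 fold of TRAP over lysate (vertical axis) for the 10 genes and for related gene lists, with called genes filled, others open and list medians in red. The other ER genes centre on 1.00, the other ATF4 and CHOP targets on 0.08, microglia markers on 6.56 and pan-neuronal markers on -1.39.

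The TRAP over lysate ratio was larger in cohort 2 for Sdf2l1 and Manf. Within cohorts the 10 genes kept their direction, with 10 of 10 called in cohort 1 and 9 of 10 in cohort 2 (Atf4, 0.12, adjusted p = 0.434, was not), against 65.3% and 66.1% of all genes. The log2 fold of Sdf2l1 was 2.46 in cohort 1 and 3.41 in cohort 2, a difference of 0.95 ± 0.18 (edgeR adjusted p = 0.000626), and that of Manf 1.05 and 1.63, a difference of 0.58 ± 0.145 (adjusted p = 0.00577). The difference between cohorts was called for 20.1% of all genes and for 2 of the 10. It was 0.42 for Creld2 (adjusted p = 0.053), 0.38 for Hspa5 (adjusted p = 0.0565) and -0.34 for Asns (adjusted p = 0.125). Left out 1 at a time, 4 mice gave a call for Creld2 (lowest edgeR adjusted p = 0.0217) and 3 for Hspa5 (lowest 0.0321). The other mice gave none. In home cage mice alone the difference was 0.09 for Creld2 (adjusted p = 0.886) and 0.38 for Hspa5 (adjusted p = 0.367), neither called. Without the run mice Male1 and Female2, which left 1 run mouse in cohort 2, it was 0.17 for Creld2 and 0.38 for Hspa5.

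For Sdf2l1 the cohorts differed in TRAP, at 123.4 to 221.7 CPM in cohort 1 and 265.2 to 507.3 in cohort 2, while lysate overlapped at 25.0 to 41.2 and 28.6 to 42.5. For Manf they differed in lysate, at 47.9, 48.1, 50.1 and 55.5 CPM in home cage mice of cohort 1 and 34.4, 34.9 and 39.7 in those of cohort 2, and also without overlap in run lysate (means 63.0 and 46.5 CPM), while TRAP overlapped. Without the 2 run mice named above, which left 1 run mouse in cohort 2 that is assumed to vary like the others, the difference was 0.67 for Sdf2l1 (adjusted p = 0.0408) and 0.47 for Manf (adjusted p = 0.0858). In home cage mice alone it was 0.75 (adjusted p = 0.0681) and 0.38 (adjusted p = 0.26). The summed markers of microglia, endothelial, mural, neuronal and astrocyte lists moved with cohort as given above, and their part in these differences was not tested. Genes of like GC content (1623 each) had a median difference between cohorts of -0.09 for Sdf2l1 and 0.02 for Manf. Most of those genes lay between -1.04 and 0.70 for Sdf2l1 and between -1.075 and 0.835 for Manf. The difference of Manf was inside its range and that of Sdf2l1 above its own. The part of GC content was not tested.

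Levels themselves differed between cohorts for many of the genes. Ddit3, Asns, Xbp1, Hspa5 and Creld2 had no overlap between cohorts in any of the 4 groups, as did 32.7% of all genes. Hspa5 in cohort 2 was at 0.498 to 0.508 times its cohort 1 mean in lysate and 0.645 to 0.654 times in TRAP, and Asns at 0.554 to 0.757 times over the groups. Creld2 went the other way at 1.63 to 2.77 times, and Ddit3 at 1.54 to 2.27 times.

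After 1 h of running none of the 10 genes was called in microglial TRAP, where 0.0384% of 15644 genes (6, all higher) were. Log2 folds of run over home cage ran from -0.135 for Hspa5 to 0.28 for Chac1, with 6 of 10 above 0 (50.2% of all genes were) and a median of 0.06. Every adjusted p was 0.999 or 1, and 0 of 10 had an unadjusted p under 0.05 (3.56% of all genes did). DESeq2 called none of the 10. The 95% intervals for the ER genes were -0.38 to 0.11 for Hspa5, -0.25 to 0.25 for Manf, -0.35 to 0.28 for Sdf2l1 and -0.18 to 0.41 for Creld2, and that of Atf4 was -0.04 to 0.53. Trib3 was the least constrained at -0.68 to 1.16.

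Within cohort 2 some genes stood higher in run TRAP. Creld2 was at 138.5, 139.2 and 207.0 CPM in the 3 run mice and 94.7, 117.1 and 129.1 in the 3 home cage mice, with no overlap. In cohort 1 it was at 53.3, 54.4, 58.4 and 67.1 against 61.4, 66.0, 68.3 and 69.6, with run mostly the lower. The run effect was 0.49 ± 0.18 in cohort 2 and -0.17 ± 0.16 in cohort 1, and the difference of 0.66 ± 0.24 was not called (edgeR adjusted p = 0.901). Without Male1 and Female2, which left 1 run mouse in cohort 2, assumed to vary like the others, the run effect of Creld2 there was 0.28 ± 0.22 (adjusted p = 1).

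Atf4 in cohort 2 was at 93.0, 93.1 and 126.2 CPM in run TRAP and 61.0, 71.0 and 92.9 in home cage TRAP, a log2 fold of 0.45 ± 0.20 (adjusted p = 0.989), or 0.315 ± 0.27 without Male1 and Female2 (adjusted p = 1). The lowest run value and the highest home cage value nearly met, and with scaling within TRAP the ranges overlapped, which left Creld2 alone without overlap (4.67% of all genes). In all, run lay above home cage without overlap for Atf4 and Creld2 in cohort 2 (5.26% of all genes) and for none in cohort 1 (1.33%). The 1 run mouse left without Male1 and Female2 was above the 3 home cage mice for the same 2 genes, as for 23% of all genes. In TRAP by cohort, 0.0128% of genes were called in cohort 1 and 0% in cohort 2, none of them among the 10, and the difference of the run effect between cohorts was called for 0% (703 genes at an unadjusted p under 0.05).

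The run mouse Female2 of cohort 2 had the highest TRAP level of Ddit3 (61.1 CPM, against 31.5 in the next), Creld2 (207.0), Sdf2l1 (507.3) and Manf (165.9) of all 14 mice. Its TRAP library was also the deepest (241381845 counts) and held the highest summed microglia markers (69080 CPM). Without this mouse and Male1, the run effect in TRAP was -0.05 for Ddit3, -0.05 for Creld2, -0.23 for Sdf2l1 and -0.12 for Manf. With them it was 0.20, 0.11, -0.04 and 0.00, and none was called either way. Among cell type markers 0 of 8 endothelial markers had a log2 fold above 0 after running in TRAP (median -0.15), against 8 of 8 oligodendrocyte (median 0.17) and 9 of 10 pan-neuronal ones (median 0.17), none called, and their part in the run effects was not tested.

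In total lysate none of the 10 genes was called after running, where 0.0303% of 16522 genes (5, all higher) were. The fitted log2 folds, adjusted for cohort, ran from 0.06 for Asns to 0.34 for Manf, with a median of 0.18 against 0.00 for all genes, of which 50.4% were above 0. Group medians over both cohorts did not all go the same way, that of Xbp1 being 138.6 CPM in home cage and 136.0 in run lysate. Of 8 endothelial markers 1 was above 0 in run lysate (median -0.38, range -1.10 to 0.09, none called), and of 5 excitatory neuron markers 1 (median -0.155), and their part in these values was not tested. Manf, Sdf2l1, Atf4 and Hspa5 had an unadjusted p under 0.05, as did 7.3% of all genes. Manf was higher in 39 of 49 pairs of a run and a home cage mouse, with a log2 fold of 0.34 ± 0.09 (95% interval 0.16 to 0.53, edgeR adjusted p = 0.435, DESeq2 adjusted p = 0.0635). Sdf2l1 was higher in 45 of 49 pairs, at 0.31 ± 0.10 (interval 0.11 to 0.52, edgeR adjusted p = 0.552, DESeq2 adjusted p = 0.235). The pairs cross cohorts and share mice, and no share over all genes was taken for them, so these counts are descriptions. Without Male1 and Female2 the values were 0.28 for Manf and 0.29 for Sdf2l1 (edgeR adjusted p = 0.873 and 0.879).

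In lysate 9 of the 10 run effects had an estimate above 0 in both cohorts, the exception being Chac1 (0.15 in cohort 1 and -0.02 in cohort 2), and none was called. The share of all genes above 0 in both cohorts was not taken. The 10 genes were measured in the same libraries, so their directions are not independent. Manf in run lysate was at 55.0, 57.8, 63.6 and 75.6 CPM in cohort 1 and 40.4, 47.6 and 51.6 in cohort 2, against the home cage values given above. Its run effect was 0.33 ± 0.12 in cohort 1 and 0.37 ± 0.14 in cohort 2. Sdf2l1 was at 32.5, 33.7, 40.4 and 41.2 against 25.0, 26.6, 30.7 and 33.5 in cohort 1, and at 34.3, 36.0 and 42.5 against 28.6, 31.7 and 34.6 in cohort 2 (0.35 ± 0.13 and 0.26 ± 0.15).

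Atf4 was at 81.7, 85.4, 97.9 and 119.5 CPM against 74.9, 75.5, 86.5 and 87.5 in cohort 1, and at 78.7, 83.3 and 105.4 against 74.8, 76.0 and 76.6 in cohort 2 (0.25 ± 0.13 and 0.24 ± 0.15). Without Male1 and Female2 the cohort 2 effects, which then rest on 1 run mouse, were 0.17 ± 0.21 for Manf, 0.13 ± 0.23 for Sdf2l1 and 0.15 ± 0.22 for Atf4 (adjusted p = 1 for each). Manf, Atf4 and Xbp1 lay above home cage without overlap in cohort 2 (4.15% of all genes), and none did in cohort 1 (1.5%). With scaling within lysate Hspa5 and Sdf2l1 did too, 5 of 10 in cohort 2 (4.67% of all genes). The 1 run mouse left without the other two was above the 3 home cage mice for 6 of 10 genes (23.6% of all genes), Sdf2l1 not among them. No gene was called in lysate in either cohort alone (0% each, with 1226 and 331 genes at an unadjusted p under 0.05), nor for a difference between cohorts (0%, 371 genes).

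**Figure D4:**
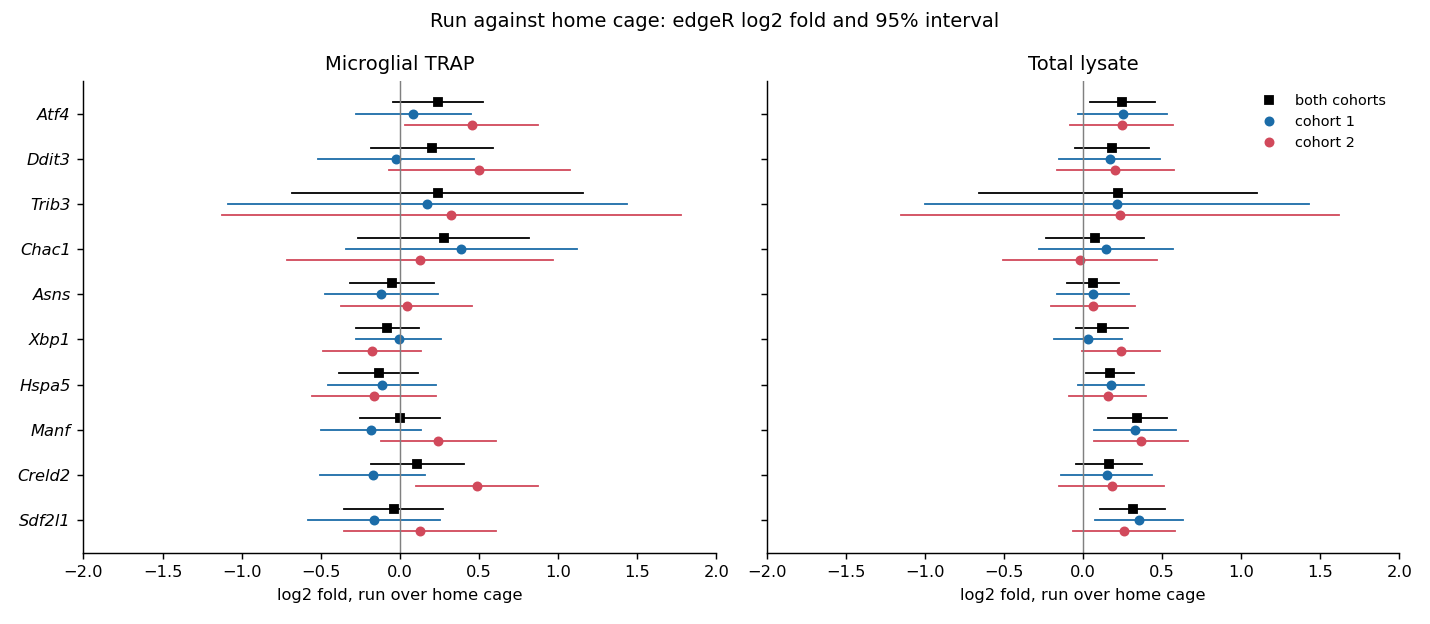
Log2 fold of run over home cage with 95% intervals (horizontal axis) for the 10 genes in TRAP (left) and lysate (right), over both cohorts and within each. In lysate the estimates over both cohorts lie between 0.06 and 0.34, and in TRAP those of Creld2 are -0.17 in cohort 1 and 0.49 in cohort 2.

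The run effect was not shown to differ between the fractions for any of the 10 genes. The difference (TRAP minus lysate) ran from -0.33 for Sdf2l1 (95% interval -0.845 to 0.18) to 0.22 for Chac1 (-0.43 to 0.87), with edgeR adjusted p = 1 throughout. Over all 16880 genes 0% were called by edgeR, with 696 at an unadjusted p under 0.05, none of them among the 10, and DESeq2 called 31, also none of the 10. Manf differed by -0.315 (-0.695 to 0.07) and Hspa5 by -0.30 (-0.62 to 0.02). Without Male1 and Female2 the difference was -0.70 for Sdf2l1 (adjusted p = 0.344) and -0.51 for Manf (adjusted p = 0.353).

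Of the other pathway genes 1 was called after running. It was Ddit4, an mTORC1 inhibitor induced by ATF4 and by glucocorticoids, which was higher in TRAP (1.82 ± 0.32, adjusted p = 0.0497). The call lay at the threshold, and with either cohort fitted alone 0 genes were called in TRAP. No gene of the pathway lists was called in lysate or for the difference of the fractions. In lysate the highest log2 fold among the other ATF4 and CHOP targets was 1.801, not called. Of the 37 other ER genes 8 were above 0 in TRAP (median -0.07) and 19 in lysate (median 0.01). Of the 37 other ATF4 and CHOP targets 18 were above 0 in TRAP and 26 in lysate (median 0.06).

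The genes whose pattern over the 8 cells of group and cohort was most like each of the 10 were found by the root mean square difference of centred mean log2 CPM. The closest were Sars (0.05) and Ecsit (0.06) to Ddit3, Sap18 (0.06) and Gm4285 (0.07) to Xbp1, Ccdc12 (0.06) and Pmf1 (0.08) to Creld2, and Thbs3 (0.065) and Cck (0.08) to Chac1. Msrb2 (0.07) and S100a13 (0.10) were closest to Manf, Ube2f (0.07) and Tmem59 (0.08) to Hspa5, Pnma2 (0.075) and Krt12 (0.08) to Asns, and Sirt7 (0.10) and Imp4 (0.10) to Trib3. Sdf2l1 and Atf4 had no neighbour that close, with H2-M3 (0.11) and Dhx58 (0.12) for Sdf2l1 and Phf8 (0.13) and Rdh12 (0.13) for Atf4. These differences were small beside the own centred profile of Sdf2l1 (root mean square 1.49) but not beside that of Atf4 (0.222), which varied little. The median difference over 16879 genes lay between 0.68 and 1.62. The 8 points share libraries and depth, so the values are descriptions.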

How the data were processed

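Raw counts per gene were deposited by the authors for 28 libraries as 1 table. Poly(A) RNA was isolated with RNeasy Mini and libraries were made with Nextera XT, per the labels' protocols. The submitters' processing notes name STAR 2.7.7a, featureCounts, DESeq2 and GRCm38. For strand and annotation, the setting is not given in the sources used here. Groups came from the sample titles, and 0 columns belonged to no sample. No 2 libraries of a group agreed within sampling noise (lowest chi-square per degree of freedom 69.6). Replicates are separate mice, per the titles.

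edgeR 4.0.16 (R 4.3.3) quasi-likelihood tests were run over all genes, with TMM scaling and the filter filterByExpr, and p-values were adjusted by Benjamini-Hochberg with a threshold of 0.05. The run effect was tested inside each fraction (14 libraries), and fractions, with their difference of run effects, over 28 libraries, with cohort as covariate. The run effect and the ratio in each cohort came from models of group by cohort. Fits were tested on simulated data. SEs come from the F statistic. DESeq2 1.42.0, other scaling, no filter, no cohort term, single cohorts, left-out mice and a mouse block were alternatives. The titles tie a TRAP and a lysate library to the same animal. Their deviations from the means of their groups had correlations of -0.38 to 0.29, with 5 of 14 mice over 0.1. Likeness used log2 (CPM + 0.5). Lengths, positions, GC content and overlaps come from GENCODE on GRCm38, and GC content was known for 96.2% of genes tested.

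The 10 genes and the lists were chosen with earlier results of these data known. All 10 were named in every comparison, as were up to 3 called genes with the smallest p from each other pathway list, 6 marker genes of cell types and the 2 most similar genes of each of the 10. Gcn1 and Selenos did not match the table by these symbols. The marker genes not printed in the text ran as follows (mean CPM, TRAP and lysate). Tmem119 was at 3238 and 32.6, Slc17a7 at 309.4 and 721.5, Gfap at 32.3 and 92.0, Mbp at 673.4 and 1892, and Pecam1 at 25.8 and 3.30. Of the other cell type lists, 5 of 5 excitatory and 6 of 6 inhibitory neuron markers, 7 of 8 astrocyte, 7 of 8 oligodendrocyte and 3 of 4 oligodendrocyte precursor markers were called lower in TRAP, and of 6 mural cell markers 3 were higher and 1 lower.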

Additional observations from a re-analysis of the deposited data

Results flagged for a closer look

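In run TRAP, Ddit3 in the mouse Female2 of cohort 2 was at 61.1 CPM, far from the other 6 libraries of its group (16.9 to 31.5). Of 40 groups of 7 libraries tested for such a gap 1 had one. The test pooled the cohorts, which did not overlap for Ddit3 in run TRAP (means 17.2 and 39.1 CPM). Its rate of about 1 in 20 by chance assumes 1 population and so does not apply here. Within cohort 2 the run mice were at 24.8, 31.5 and 61.1 CPM. The lysate library of Female2 was at 53.1 CPM, the highest of its group. Female2 is 1 of the 2 mice whose Y-linked level went against the label.

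The TRAP over lysate ratio differed between the cohorts for 2 of the 10 genes and for 20.1% of all genes, so the count of 2 is at the share of all genes. The difference (cohort 2 minus cohort 1, log2) was 0.952 for Sdf2l1 and 0.577 for Manf. With each mouse left out in turn it stayed called, at 0.834 to 1.024 for Sdf2l1 and 0.448 to 0.638 for Manf. Without the 2 run mice whose Y-linked level went against the label, the call for Manf was lost (0.475, edgeR adjusted p = 0.0858) and that for Sdf2l1 was kept (0.665, adjusted p = 0.0408). In home cage mice alone both were lost (0.749, adjusted p = 0.0681 for Sdf2l1, and 0.375, adjusted p = 0.26 for Manf).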

How the results depend on the processing

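The direction of all 10 genes between TRAP and lysate was kept under every alternative run, and the count of called genes stayed between 10492 and 13293. In the same comparison Ddit3 lost its call in cohort 2 alone (-0.41, adjusted p = 0.0702) and Atf4 as given in the report. The mouse block changed no call of the 10 genes between the fractions or for the difference of run effects, nor for the cohort differences of Sdf2l1 (0.94) and Manf (0.58). Calls after running were few and unstable: in TRAP 42 genes with DESeq2, 0 without the cohort term, 0 in each cohort alone and 3 to 10 with a mouse left out. In lysate there were 40 with DESeq2, 0 without the cohort term, 0 in each cohort alone, 0 without the 2 run mice whose sex markers went against their labels and 0 to 8 with a mouse left out. For the difference of run effects there were 31 with DESeq2, 2 in cohort 2 alone and 0 to 1 with a mouse left out.

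Several uncalled run effects changed sign, and the cause was not tested. In TRAP, Manf (0.00) was at -0.008 with RLE size factors and with DESeq2 and -0.001 without the low-count filter, and Sdf2l1 was at 0.011 without the cohort term. In cohort 1 alone Manf was at -0.181, Ddit3 at -0.021 and Creld2 at -0.174, and in cohort 2 alone Asns was at 0.036 and Sdf2l1 at 0.119. Without the 2 run mice Ddit3 was at -0.054, Manf at -0.124 and Creld2 at -0.047. With a mouse left out, the ranges were -0.087 to 0.051 for Manf, -0.16 to 0.036 for Sdf2l1, -0.118 to 0.01 for Asns, -0.009 to 0.276 for Ddit3 and -0.009 to 0.158 for Creld2. In lysate, Chac1 was at -0.032 in cohort 2 alone and -0.026 to 0.137 with a mouse left out. For the difference of run effects, Creld2 was at 0.081 without the cohort term and 0.286 in cohort 2 alone, where Atf4 was at 0.185. In cohort 1 alone Ddit3 was at -0.201 and Trib3 at -0.043, and without the 2 run mice they were at -0.17 and -0.238. With the mouse block Atf4 was at 0.013 and Ddit3 at -0.018. With a mouse left out, the ranges were -0.091 to 0.056 for Atf4, -0.141 to 0.127 for Ddit3, -0.141 to 0.39 for Trib3 and -0.164 to 0.076 for Creld2. The difference of ratios between cohorts, whose alternatives were chosen after seeing the data, turned for Ddit3 to -0.247 and for Xbp1 to -0.044 without the 2 run mice, for Ddit3 to -0.113 in home cage mice alone, and ranged from -0.047 to 0.246 for Ddit3 with a mouse left out. The run effects in cohort 2 without the 2 run mice, also chosen after seeing the data, turned in TRAP for Ddit3 (-0.135), Chac1 (-0.493), Hspa5 (0.048) and Sdf2l1 (-0.385), and in lysate for none of the 10. Their difference from cohort 1 turned in TRAP for Ddit3 (-0.11), Hspa5 (0.168) and Sdf2l1 (-0.218) and in lysate for Ddit3 (-0.032), Asns (0.094) and Manf (-0.16). Counts of Trib3 (24 to 691 reads) limit its precision.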
